A study of Mus musculus with 7 samples.

Results

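The transcriptome described here is that of untreated Lewis lung carcinoma (LLC) tumours, taken as the 4 control libraries of a 7-library series and ranked gene by gene on their mean level. The other 3 libraries came from mice given a herbal decoction (Ze-qi decoction, ZQD) and enter no value below. The mice were C57BL/6J of wild-type genotype (WT in the labels), injected under the skin of the right axilla with LLC cells at an age of 6 weeks, and they received no treatment. The labels put collection at day 22 after injection, whereas the series' design text gives day 21. The 4 control libraries are numbered 1 to 4. Each group held 8 mice, and the labels do not say whether the 4 libraries came from 4 separate mice, so the spread between them may be partly technical. The labels give neither the sex of the mice nor a batch. They list an Illumina and an MGI instrument for sequencing, with no link to single libraries. LLC is 1 transplanted line, so all 4 tumours share their cancer cells' origin.

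LLC cells came from a lung tumour that arose in a C57BL mouse. They grow in immunocompetent hosts of the same strain, so a tumour under the skin contains the cancer cells together with host macrophages, lymphocytes, blood vessels, fibroblasts and whatever skin, fat or muscle is taken with it. A bulk library adds the RNA of all of them, and fewer cells of a type cannot be told apart from less RNA per cell. The labels give the cell type as tumour cell. All 10 genes of a general leukocyte list were nevertheless at a mean of 1 FPKM or more, so the libraries hold host RNA as well.

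Levels are FPKM, in which the authors' read count of a gene is scaled to its length and to the library's depth. They were based on 49914394, 38866504, 32065288 and 39391002 counted reads in controls 1 to 4. For a gene 1 kb long a single read equals 0.020 to 0.031 FPKM. A gene without reads may have a level of up to 3 reads, 0.060 to 0.094 FPKM at that length, as far as counting error goes. Groups of 4 numbers below are controls 1, 2, 3 and 4 in that order, and values with ± are mean and SD with n = 4. With 1 group there is no contrast and no test between groups, so differences between libraries are described by their size and by the coefficient of variation (CV, the SD over the mean), whose largest possible value over 4 libraries is 2.

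Of 32212 genes listed, 12707 had a mean of 1 FPKM or more, and 10909 of these were protein coding. At 10 FPKM or more 4964 genes were left, at 100 or more 327, at 1000 or more 15 and at 10000 or more 3. At the other end 2552 genes were at 0 in every control. The ranking was shared between libraries at its top: 25 genes stood among the 30 highest of every control, and 86 among the 100 highest. The step at 1 FPKM passes between genes of nearly equal level. Tnnt2, Cdh1, Cd3d and 1810014B01Rik lay just above it and Mme, Gm18258 and Gm45855 just below, all at 1.00 FPKM when rounded.

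Transcripts of the mitochondrial genome led the list. This small circular genome encodes subunits of the respiratory chain, and most of its messages carry poly(A) tails that the library preparation captures. mt-Co1, a subunit of complex IV, was the most abundant gene at 17367, 20512, 20609 and 16191 FPKM. mt-Cytb of complex III followed at 12474, 11896, 15321 and 8101, and mt-Nd1 of complex I at 9861, 12869, 12117 and 7523. In all, 7 of the 30 most abundant genes were mitochondrially encoded. The 16 mitochondrially encoded genes measured held 17.7 ± 2.95% of the summed FPKM and 6.72 ± 1.19% of the reads. The share of reads was 6.47%, 7.26%, 7.96% and 5.18%, so control 4 had the lowest. Of 13 protein-coding mitochondrial genes, 12 were lowest in control 4, as were 27.4% of all genes at 1 FPKM or more. The mean sum over the 13 was 51893 FPKM, nearly all of it from the 7 among the 30 most abundant. The rest of the 13, mt-Co2 and mt-Co3 among them, were far lower, so the shares above rest mostly on these 7. The reason for the gap was not tested.

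Among nuclear genes B2m came first, at 4482, 5196, 4802 and 4795 FPKM. It encodes beta-2 microglobulin, the light chain of MHC class I, and its CV of 0.0607 was low. The elongation factor gene Eef1a1 stood at 3688 ± 369, the galectin gene Lgals1 at 1702 ± 115 and the chaperone gene Hsp90ab1 at 1528 ± 71.2. Cytoskeletal and calcium-binding proteins followed with Actb at 1186 ± 178, S100a11 at 1107 ± 173 and Tmsb10 at 1014 ± 94.2. Spp1, which encodes the secreted phosphoprotein osteopontin made by tumour cells and macrophages alike, was at 1194, 743, 1257 and 1206, lowest in control 2. Ribosomal protein genes, 82 in number, held 6.5 ± 0.535% of the summed FPKM, with Rps3a1 at 1053 ± 17.7 the steadiest of the 30. The 10 most abundant genes together took 20.9 ± 2.65% of the summed FPKM but only 8.54 ± 1.09% of the reads, since FPKM weights short genes.

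**Figure D1:**
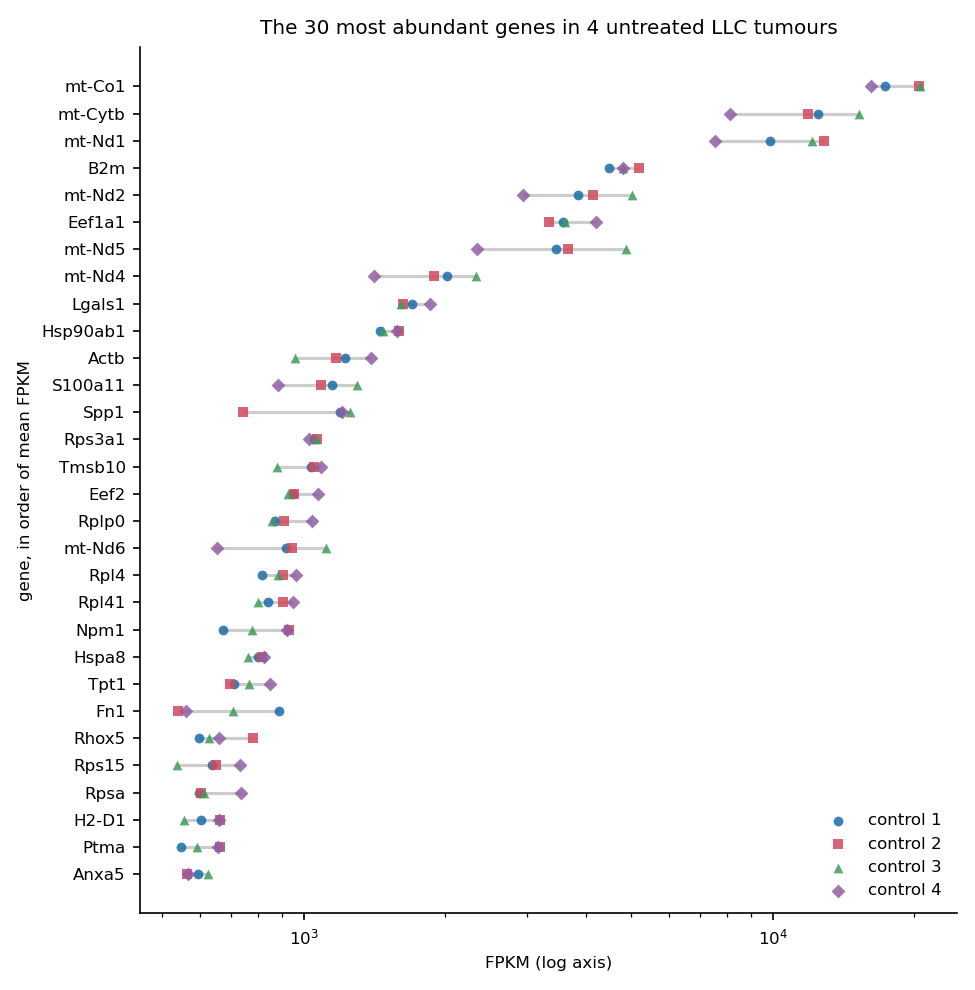
FPKM of the 30 most abundant genes in each of the 4 control libraries, on a log axis, in order of the mean; grey lines join the lowest and highest library. mt-Co1 is highest, B2m leads the nuclear genes, and control 4 is lowest for all 7 mitochondrially encoded genes drawn.

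The 25th most abundant gene was Rhox5, an X-linked homeobox gene whose normal expression is mostly in testis, ovary and placenta and which many transplantable tumours are known to express. It measured 599.5, 779.9, 629.8 and 659 FPKM. The Rhox and Xlr families were looked up after the ranking was seen. Of 17 Rhox genes measured, 6 were at a mean of 1 FPKM or more, among them Rhox2d at 46.5 ± 4.8, Rhox2h at 29 ± 2.17 and Rhox2g at 19.8 ± 1.51, which are near copies of each other and may share reads. Of 16 genes of the X-linked Xlr family, named for lymphocyte-regulated expression, 9 were at 1 or more, led by Xlr3c at 30.3 ± 2.83 and Xlr at 16 ± 1.01. Over all genes the share at 1 or more was 39.4%, and the Rhox count was near it. Some members varied, with a single library high. Rhox10 was at 1.94, 9.07, 2.94 and 0.532, highest in control 2, and Rhox4a2 at 0.734, 0.685, 3.88 and 0.845, highest in control 3. Xlr5b was likewise highest in control 2, at 1.45, 5.0, 1.45 and 0.539. 1 gene with no symbol in the name tables, ENSMUSG00000119584, stood at rank 34 with 565 FPKM.

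Classes of genes were then described by 60 lists of 763 genes in all, chosen with earlier results of these data known. The share of list genes at a mean of 1 FPKM or more was 77.4% in the lists on tumour cells and their state, 77.3% in the immune lists and 57.4% in the lists on stroma and other host tissue. It was 96.4% in the lists of widely expressed genes and 15.2% in those of other lineages, lung epithelium included, against 39.4% of all genes. The median of member means was 14.4, 6.34, 1.51, 96.7 and 0.0486 FPKM in the same order, and 0.291 over all genes. Where members are counted by their highest or lowest library, the background is uneven. Of all genes at 1 FPKM or more, 28.1%, 27.4%, 18.9% and 25.6% were highest in controls 1 to 4, and 21.8%, 28.7%, 22.2% and 27.4% lowest.

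**Figure D2:**
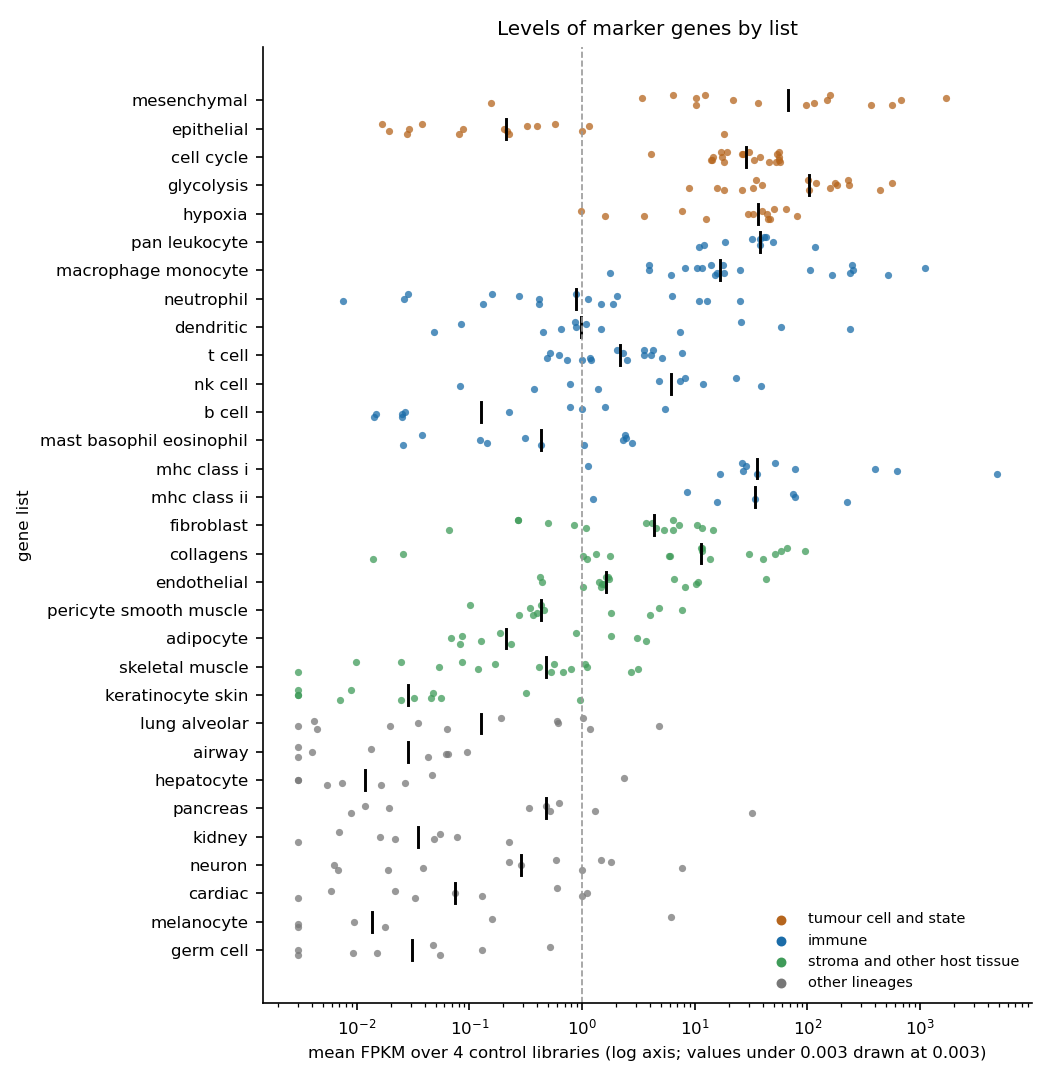
Mean FPKM over the 4 control libraries of each member of 31 gene lists, on a log axis, with values under 0.003 drawn at 0.003; black bars mark list medians and the dashed line 1 FPKM. Mesenchymal, cell cycle, glycolysis and leukocyte lists lie to the right of the line, and epithelial, keratinocyte and other-lineage lists mostly to its left.

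Tumour cell genes had a mesenchymal profile. Epithelial cells are marked by keratins, claudins and E-cadherin, and mesenchymal cells by vimentin, fibronectin and the transcription factors of the Snail, Twist and Zeb families. Of 16 mesenchymal genes, 15 were at a mean of 1 FPKM or more and the list median was 66.9. Vim, the intermediate filament of mesenchymal cells, was at 565, 459.8, 502 and 704 FPKM, and the matrix protein gene Sparc at 369 ± 38.9. The receptor tyrosine kinase gene Axl was at 115 ± 14.2 and the hyaluronan receptor gene Cd44 at 96.9 ± 8.66. Among the transcription factors Snai2 was at 36.8 ± 9.41, Twist1 at 21.8 ± 1.62 and Zeb1 at 10.3 ± 2.25. The exception was Cdh2, N-cadherin, at 0.156 ± 0.020. Some of these genes are also expressed by fibroblasts, macrophages and vessels, and the libraries do not separate them.

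Of 16 epithelial genes, 3 were at 1 or more and the list median was 0.210. Epcam, the epithelial adhesion molecule, was at 0.201, 0.223, 0.242 and 0.231 FPKM and alike in all 4 libraries. Cdh1, E-cadherin, was at 1.26, 0.551, 1.21 and 0.993, below 1 in controls 2 and 4. Krt8 was at 0.0883 ± 0.0846 and Krt18 at 0.328 ± 0.249, the keratin pair of simple epithelia. Krt19 was the exception at 7.14, 31.6, 11.7 and 21.9. Its level was highest in control 2 and lowest in control 1, and its CV was 0.604.

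Oncogenes and tumour suppressors differed little between libraries, as did most genes. Of 27, 20 were at 1 or more. Their median CV was 0.0888, against 0.118 over all genes at that level and 0.0998 over genes at 5 or more. None of the 20 had a CV of 0.5 or more, which is near the share of 2.72% over all genes. Myc stood at 97.3, 116, 103 and 118 FPKM and Ccnd1, cyclin D1, at 96.9, 109, 95.5 and 103. Nras was at 31.1 ± 1.94. The tumour suppressor gene Trp53 was at 33, 38.1, 34.8 and 34.5 and its target Cdkn1a, which encodes the cell cycle inhibitor p21, at 33.1 ± 3.43. Met, the receptor of hepatocyte growth factor, was at 18.9 ± 1.33 and Egfr at 6.26 ± 1.14. In contrast Cdkn2a, which encodes the cell cycle inhibitor p16 and ARF, was at 0.205, 0.154, 0.319 and 0.477. Mycn was at 0.105 ± 0.065, Mycl at 0.173 ± 0.0932 and the kinase gene Alk at 0.0033 ± 0.00381.

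Oncofetal genes differed widely in level. Hmga1 and Hmga2, which encode architectural chromatin proteins of embryonic and tumour cells, were at 365, 484, 369 and 564 and at 132, 162, 141 and 165 FPKM. The RNA-binding protein gene Igf2bp2 was at 38.2 ± 2.07 and Igf2bp1 at 2.59 ± 0.627. Of 14 such genes measured, 6 were at 1 or more, near the 39.4% of all genes.

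All 20 cell cycle genes and all 17 glycolysis genes passed 1 FPKM. Mki67, a marker of cycling cells, was at 47.5, 59.6, 66.3 and 56.1 FPKM and Top2a, a topoisomerase of dividing cells, at 43.4, 68.5, 51.4 and 62.2. Of the 20, 18 were lowest in control 1 (17 on the TPM scale), where 21.8% of all genes at 1 FPKM or more were lowest. Pkm, pyruvate kinase, was at 453, 545, 536 and 709 and Ldha, lactate dehydrogenase, at 179.7, 251, 209.8 and 282. All 17 glycolysis genes were highest in control 4 (15 when libraries were scaled without mitochondrially encoded genes), as were 25.6% of all genes, and their sum was 2027, 2459, 2335 and 3096. Of 13 hypoxia genes at 1 or more, 9 were highest in control 4 (8 to 10 under other scalings). Bnip3, a mitochondrial protein induced by low oxygen, was at 40.9, 45.4, 50.3 and 66.1, and Vegfa, the vascular growth factor, at 31.1, 51.9, 41.9 and 48.4. Hif1a went the other way at 47.7, 49.5, 47 and 40.6, lowest in control 4. The metallothionein gene Mt1, of metal buffering, was at 105, 183, 187 and 331, highest in control 4 and lowest in control 1.

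Among the lists of single immune cell types the macrophage list had the highest median, 16.8 FPKM. These phagocytes are recruited to LLC tumours from blood monocytes and mark themselves by complement C1q, the lysosomal protein Cd68, lysozyme and the receptor for colony stimulating factor 1. All 20 genes of the macrophage and monocyte list were at 1 FPKM or more, and 15 of them at 10 or more. Cd68 was at 235, 259, 287 and 225 FPKM. The complement genes C1qa at 166 ± 7.56, C1qb at 239 ± 36.2 and C1qc at 104 ± 9.67 lay in the same range. Csf1r was at 18 ± 4.92, Adgre1 (F4/80) at 15.2 ± 1.91, Mrc1 (CD206) at 8.11 ± 2.82 and Arg1, arginase, at 17.6 ± 4.49. Csf1, the ligand of Csf1r, was at 85.6, 128, 83.8 and 83.2, highest in control 2.

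Control 4 stood below the other 3 for several macrophage genes. Of the 20, 15 were lowest in control 4, where 27.4% of all genes were lowest. Apoe, the lipid carrier apolipoprotein E, was at 746, 663, 572 and 104 FPKM. Lyz2, lysozyme, was at 275, 326, 269 and 115. For both genes control 4 lay below each of the other 3 libraries by more than those 3 differed from each other. C1qa, with a CV of 0.0454, and Cd68, with 0.11, differed less between libraries.

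MHC class II genes, which present antigen on macrophages, dendritic cells and B cells, showed the same split more widely. All 7 were at 1 or more and all 7 were lowest in control 4, as were 27.4% of all genes. Cd74, the invariant chain, was at 289, 282, 247 and 82.7 FPKM. H2-Ab1 was at 109, 88.4, 87.3 and 23.6, H2-Eb1 at 99, 87.2, 91.6 and 22.9 and H2-Aa at 43.8, 39, 42.3 and 11. The sum over the 7 was 570, 524, 499 and 155. Their transactivator gene Ciita was at 1.61, 1.06, 1.73 and 0.562, and shares 329 exon bases with Dexi on the opposite strand, at 1.81 FPKM. Class I genes did not share the pattern: H2-D1 was at 606, 664, 556 and 661 and H2-K1 at 381, 418, 369.9 and 418, with sums over 11 genes of 5717, 6562, 5956 and 6166.

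Lymphocyte genes were lower. T cells are defined by the CD3 chains and by Cd4 or Cd8a. Of 16 T cell genes, 12 were at 1 FPKM or more and none reached 10. Trac, the constant segment of the T cell receptor alpha chain, was at 8.83, 9.08, 7.74 and 5.46 FPKM and Cd8a at 5.86, 6.1, 5.17 and 3.26, against 1.86, 1.05, 1.19 and 0.686 for Cd4 and 0.713, 0.382, 0.497 and 0.355 for Foxp3, the factor of regulatory T cells. Of the 12, 11 were lowest in control 4, as were 27.4% of all genes. Among natural killer (NK) and cytotoxic genes, 7 of 10 passed, with Eomes, a transcription factor of cytotoxic lymphocytes, at 16, 29.8, 21.7 and 25.2 and Prf1, perforin, at 8.26, 12.1, 10.2 and 17.1. The mean of Eomes, 23.2, was above that of every T cell list gene, and which cells expressed it was not tested. Ncr1, the defining NK receptor, was at 0.481, 0.267, 0.203 and 0.544.

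B cell genes were mostly low. Only Blnk at 5.39 ± 0.879 FPKM and Pax5 at 1.61 ± 0.449 passed among 10, while Ms4a1 (CD20) was at 0.0252 ± 0.00548. Antibody transcripts were present, with Ighm, the mu heavy chain, at 10.9, 6.6, 17.5 and 21.5 and Igkc, the kappa light chain, at 22, 6.48, 11.7 and 4.82. They ordered the libraries differently, with Ighm highest in control 4 and Igkc in control 1.

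Neutrophil genes were mostly low. These granulocytes store S100a8 and S100a9 and form extracellular traps with the enzyme encoded by Padi4. Of 17, 8 were at 1 or more, near the 39.4% of all genes, and the list median was 0.880. Padi4 was at 12.6, 14.6, 12.6 and 11.4 FPKM with a CV of 0.105, and the gelatinase gene Mmp9 at 33.9, 8.35, 36.3 and 22, lowest in control 2. S100a9 was at 17.6, 9.51, 11.2 and 5.3, highest in control 1, and S100a8 at 1.9 ± 0.94. The defining surface marker Ly6g was at 0.17, 0.246, 0 and 0.216, and the granule genes Mpo at 0.00751 ± 0.015 and Elane at 0.0261 ± 0.0523. Cxcr2, their chemokine receptor, was at 0.41 ± 0.158. Per length, Padi4 was above Ly6g, Mpo, Elane and Cxcr2 in every library, but below Mmp9 in controls 1, 3 and 4 and below S100a9 in control 1. Csf3, which drives granulocyte production, was at 0.0827 ± 0.0443.

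The mast cell proteases named here were highest in control 1. Mast cells are tissue cells filled with carboxypeptidase, chymase and tryptase. Cpa3 was at 5.71, 1.56, 2.08 and 1.69 FPKM, Cma1 at 5.05, 1.42, 1.55 and 1.72, Tpsb2 at 5.37, 1.52, 1.51 and 1.15 and Mcpt4 at 4.76, 0.929, 2.08 and 1.49. Mcpt2, a protease of mucosal mast cells, was at 16.9, 1.07, 4.97 and 2.94 and Mcpt1 at 2.39, 0.558, 1.11 and 0.15. All 6 of these were highest in control 1, as were 28.1% of all genes. Mcpt1 and Mcpt2 came from the ranking by CV. The remaining protein-coding Mcpt gene measured, at a mean of 0.313 FPKM, was highest in control 3. Of 11 genes on the list of mast cells, basophils and eosinophils, 5 were at 1 FPKM or more, near the 39.4% of all genes. These were the 4 named and 1 that was highest in control 4 (in control 1 when scaled without mitochondrially encoded genes).

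Chemokine genes passed in 19 of 22 cases. Cxcl9 and Cxcl10, induced by interferon and attracting T cells, were at 79.6, 77.9, 126 and 84.1 and at 43.4, 79.4, 54.2 and 72.1 FPKM. The monocyte attractant genes Ccl2 and Ccl7 were at 91.5, 66.5, 55.8 and 57.5 and at 50.4, 43.5, 31.1 and 47.5. Cxcl1, which attracts neutrophils, was at 42, 22.1, 21.4 and 7.77, highest in control 1 and lowest in control 4, with a CV of 0.605. Ccl5 was at 4.8, 6.91, 3.44 and 4.13. The alarmin gene Il33 was at 7.63, 1.41, 2.89 and 0.80, and Csf2 at 1.45, 0.933, 1.91 and 0.0952, both lowest in control 4. All 13 checkpoint genes were at 1 or more. Cd274, which encodes PD-L1, was at 15.7, 28.9, 20.9 and 25.3 and its receptor Pdcd1 at 2.28, 3.73, 2.31 and 2.05. The B7 family gene Cd276 was at 22.5 ± 4.11 and the phagocytosis pair Cd47 and Sirpa at 34.6 ± 3.86 and at 40.1 ± 5.46.

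All 19 interferon-stimulated genes were at 1 or more and 18 at 10 or more. Isg15, a ubiquitin-like antiviral protein, was at 86.9, 126, 84.1 and 159.7 FPKM and Ifit3, an RNA-binding antiviral protein, at 60.5, 94.3, 58.3 and 116. Controls 2 and 4 were above controls 1 and 3 for both genes. Of the 19, 11 were highest in control 4 and 7 in control 2 (10 to 12 and 6 to 8 under other scalings). Over all genes the shares were 25.6% and 27.4%. The sums were 980, 1332, 912 and 1390.

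Among the 30 most variable genes named, a pair of granzymes high in control 4 had the highest means. Granzymes are serine proteases that cytotoxic lymphocytes release with perforin. The genes Gzmb to Gzmg form a cluster on chromosome 14, of which Gzmc to Gzmg are known from strongly activated T cells and uterine NK cells. Gzmb was in the NK list, Gzmd and Gzmg came from the ranking by CV, and the rest of the family was added after these values were seen. The sequences of 3 of them before the start of the gene are shown because the genes were high together in 1 library. They are the 250 bases before the start, from RefSeq on GRCm38.p6, on the minus strand at chr14:56234658-56234907 for Gzmc, chr14:56132594-56132843 for Gzmd and chr14:56159580-56159829 for Gzmg. Capitals mark the longest run shared by all 5 genes from Gzmc to Gzmg, and the motif TGACGTCA where it occurs.
Gzmc: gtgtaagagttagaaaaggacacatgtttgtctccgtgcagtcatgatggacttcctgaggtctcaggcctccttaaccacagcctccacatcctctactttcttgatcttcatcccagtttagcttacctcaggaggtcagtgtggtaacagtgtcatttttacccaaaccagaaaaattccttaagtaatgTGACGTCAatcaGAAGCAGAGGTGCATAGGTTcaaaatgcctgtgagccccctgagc
Gzmd: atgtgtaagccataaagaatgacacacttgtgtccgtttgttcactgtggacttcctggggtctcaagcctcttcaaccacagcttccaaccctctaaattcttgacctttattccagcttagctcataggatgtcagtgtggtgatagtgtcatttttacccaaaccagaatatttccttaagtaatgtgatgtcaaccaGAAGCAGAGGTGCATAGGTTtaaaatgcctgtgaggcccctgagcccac
Gzmg: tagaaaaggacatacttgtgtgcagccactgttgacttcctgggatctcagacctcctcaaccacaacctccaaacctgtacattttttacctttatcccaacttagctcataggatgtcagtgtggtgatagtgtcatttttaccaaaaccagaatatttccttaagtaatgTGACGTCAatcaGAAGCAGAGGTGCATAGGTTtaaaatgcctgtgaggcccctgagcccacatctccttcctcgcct
The shared run, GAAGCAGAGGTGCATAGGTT, is 20 bases long and occurs in 5 of 32851 RefSeq promoter windows of the same 300 bases (250 before to 50 after the start, both strands searched), those of Gzmc to Gzmg. TGACGTCA, the letters of the cAMP response element, is its own reverse complement and lies in the windows of Gzmc, Gzmf and Gzmg, as it does in 1.79% of all windows. It has no match in those of Gzmb, Gzmd and Gzme. The shared run was picked as the longest one common to the windows of Gzmc to Gzmg, which are near copies, so its presence in all 5 was fixed beforehand. A match is a description of these letters only.

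Gzmg was at 11.3, 7.53, 7.14 and 63.6 FPKM and Gzmd at 13.2, 11.4, 10.3 and 61.8. Gzmf was at 15.2, 13.3, 11.4 and 40.9, Gzme at 8.38, 7.27, 6.06 and 27 and Gzmc at 12.4, 11.1, 10.2 and 26.9. In all 5 genes controls 1 to 3 lay close together and control 4 above them. Gzmb was at 21.1, 37.9, 30.3 and 64.5, with controls 1 to 3 more spread. Among the other granzymes Gzma was at 1.31, 0.665, 0.868 and 2.73 and Gzmk at 0.62, 0.852, 0.539 and 0.366, and Gzmk was lowest in control 4. The sum over 10 granzyme genes was 83.9, 90.3, 76.9 and 288. The promoter windows of Gzmc to Gzmg were 86.1 to 94.0% identical over 10 pairs. Their longest protein-coding transcripts were 76.1 to 94.8% identical, so reads may have been shared between copies and the values of single members are uncertain. In control 4 Prf1 was also highest, whereas 11 of 12 T cell genes were lowest there, against 27.4% of all genes. The part of cell numbers in these values was not tested.

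**Figure D3:**
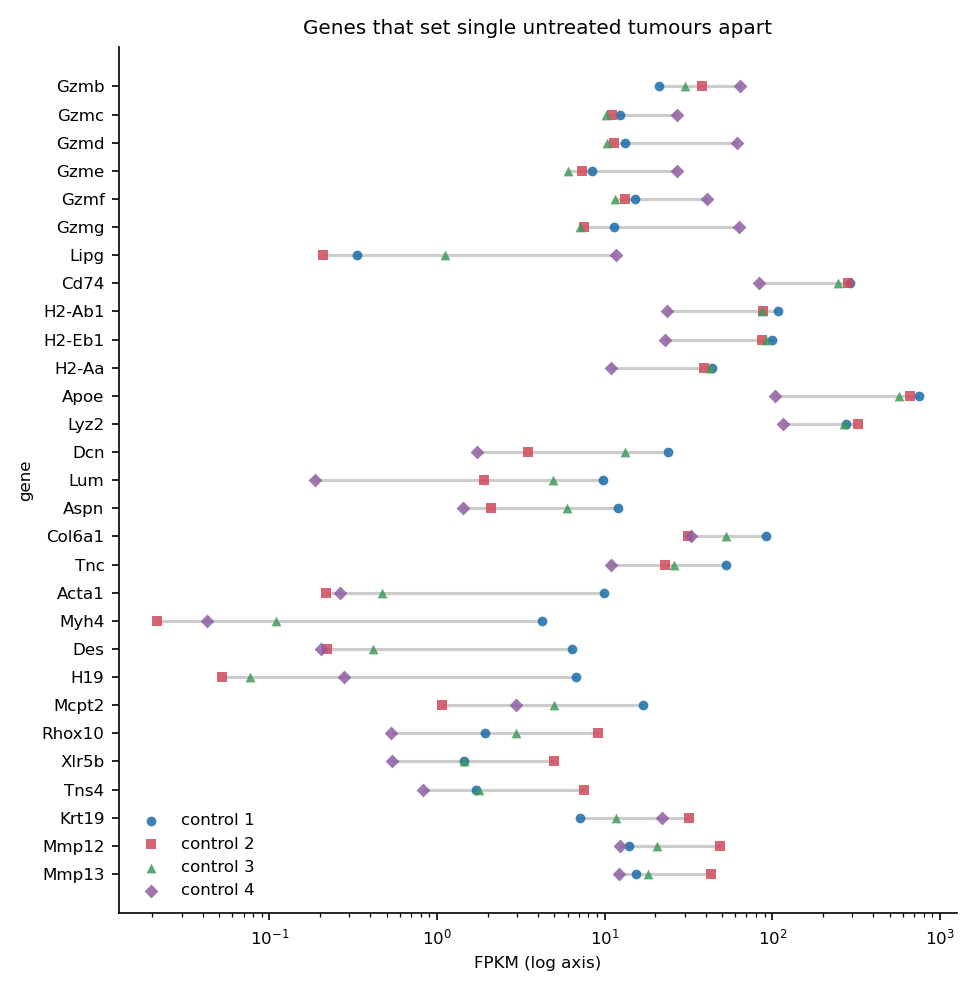
FPKM of 29 genes in each of the 4 control libraries, on a log axis; grey lines join the lowest and highest library. Control 4 lies apart, high for granzymes and Lipg and low for MHC class II genes, Apoe and Lyz2; control 1 lies high for Acta1, Myh4, Des, H19 and Mcpt2, and control 2 for Rhox10, Xlr5b, Tns4, Krt19, Mmp12 and Mmp13.

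Genes of the class of stroma and other host tissue varied most. Of 97 such list genes at 1 FPKM or more, 32 (33.0%) had a CV of 0.5 or more, against 2.72% of all genes. The share was 9.38% of immune, 1.94% of tumour and 0.621% of widely expressed list genes. The class is mixed: at that CV were all 4 skeletal muscle genes, 5 of 6 erythroid genes and 6 of 11 fibroblast genes, but 4 of 18 matrix protein genes and 0 of 13 endothelial genes. The muscle genes Acta1, Myh4 and Tnnt3 were at 1 FPKM or more in control 1 only and passed the filter through it. Their high CV was therefore fixed by the filter, and such genes are part of the 33.0%. Fibroblasts make the fibrillar collagens and small proteoglycans of connective tissue, whereas type IV collagen belongs to the basement membrane of vessels and tumour cells. Of 18 collagen genes, 16 were at 1 or more and 9 of these had a CV of 0.5 or more. Of the 16, 12 were highest in control 1 (11 when scaled by the median of ratios), against 28.1% of all genes.

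The basement membrane genes Col4a1 at 88.5, 119, 84.2 and 88.3 FPKM and Col4a2 at 58, 85, 57.2 and 64.5 were the most abundant collagens and were highest in control 2. Col6a1, of the microfibrillar type VI collagen, was at 91.4, 31.2, 52.9 and 32.7. Among the fibrillar collagens Col3a1 was at 53.3, 19.7, 31.3 and 17, highest in control 1, and Col1a1 at 22.8, 22.4, 7.63 and 2.08, nearly equal in controls 1 and 2. Dcn, decorin, was at 23.7, 3.47, 13.2 and 1.72, Lum, lumican, at 9.75, 1.89, 4.92 and 0.187 and Aspn, asporin, at 12, 2.1, 5.99 and 1.43. These 3 small proteoglycans gave the same order in every case, from control 1 through 3 and 2 to control 4. The receptor gene Pdgfra of fibroblasts was at 8.51, 3.81, 5.92 and 3.21. Fibroblast genes were not all variable, with Thy1 at 14.5 ± 2.32 and Fbln1 at 7.29 ± 0.683.

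Matrix glycoproteins and proteases were abundant. Fn1, fibronectin, was at 887, 539, 707 and 560.1 FPKM, highest in control 1, and the laminin chain gene Lamc1 at 92.3 ± 11.8. Tnc, tenascin C, was at 52.8, 22.8, 26.1 and 10.9. Cathepsin genes differed little between libraries, with Ctsb at 259 ± 8.12, Ctsz at 185 ± 4.89 and Ctsl at 92.7 ± 3.76. In contrast the elastase gene Mmp12 was at 14, 48.9, 20.6 and 12.3 and the collagenase gene Mmp13 at 15.3, 42.8, 18.2 and 12.1, both highest in control 2.

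Endothelial genes passed in 13 of 15 cases, of which 10 were highest in control 4 (11 when scaled by the median of ratios) and 11 lowest in control 1 (10 on the TPM scale). Over all genes 25.6% were highest in control 4 and 21.8% lowest in control 1. Cdh5, VE-cadherin, was at 7.95, 10.6, 10.4 and 12.5 FPKM and Pecam1, CD31, at 5.63, 7.48, 9.31 and 10.2. Eng, endoglin, which held 47.1% of the list's summed FPKM, was at 46.3, 42.1, 39.3 and 45.5, with controls 1 and 4 nearly equal. It was highest in control 1 as deposited, whereas by the median of ratios 0 of the 13 were highest there. Plvap, of fenestrated vessels, was at 9.25, 9.78, 10.1 and 13.4. Of 7 lymphatic genes only Pdpn passed, at 6.44 ± 1.5, while Lyve1 was at 0.178, 0.37, 0.513 and 0.731 and Prox1, the defining factor, at 0.0359 ± 0.015. Among mural cell genes Acta2, smooth muscle actin, was at 11.1, 7.5, 7.65 and 4.65 and Rgs5, a pericyte gene, at 6.58, 2.79, 5.49 and 1.2.

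Muscle and red cell transcripts differed by library. Skeletal muscle genes were highest in control 1. Of 16, 4 had a mean of 1 FPKM or more and the sum over the list was 36.7, 2.76, 3.80 and 2.47. Acta1, skeletal actin, was at 9.94, 0.218, 0.467 and 0.264, Myh4, a fast myosin, at 4.22, 0.0214, 0.109 and 0.0422 and Tnnt3, a fast troponin, at 3.8, 0.0975, 0.217 and 0.112. Des, desmin, was at 6.41, 0.219, 0.415 and 0.203. Myh7, the slow myosin, was at 0 in every library. Of 6 erythroid genes at 1 FPKM or more, 5 were also highest in control 1 (6 on the TPM scale) and 1 in control 3. Over all genes the shares were 28.1% and 18.9%. The globin gene Hbb-bs was at 136, 32.5, 65.4 and 83.4 and Hba-a1 at 57, 12.3, 31 and 36.6. Their near copies Hbb-bt and Hba-a2 may share reads with them.

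Skin and fat genes were low. None of 12 keratinocyte genes reached a mean of 1 FPKM. Krt14, of basal keratinocytes, was at 0.0323 ± 0.0292 and Krt5 at 0.0071 ± 0.0142, and Krt1 was at 0 in every library. Trp63 was at 0.59, 2.38, 0.676 and 0.179, highest in control 2. Adipoq, the adipocyte hormone, was at 0.377, 0, 0.452 and 0.11, while Fabp4, shared by adipocytes, vessels and macrophages, was at 3.14, 2.13, 4.29 and 5.14.

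**Figure D4:**
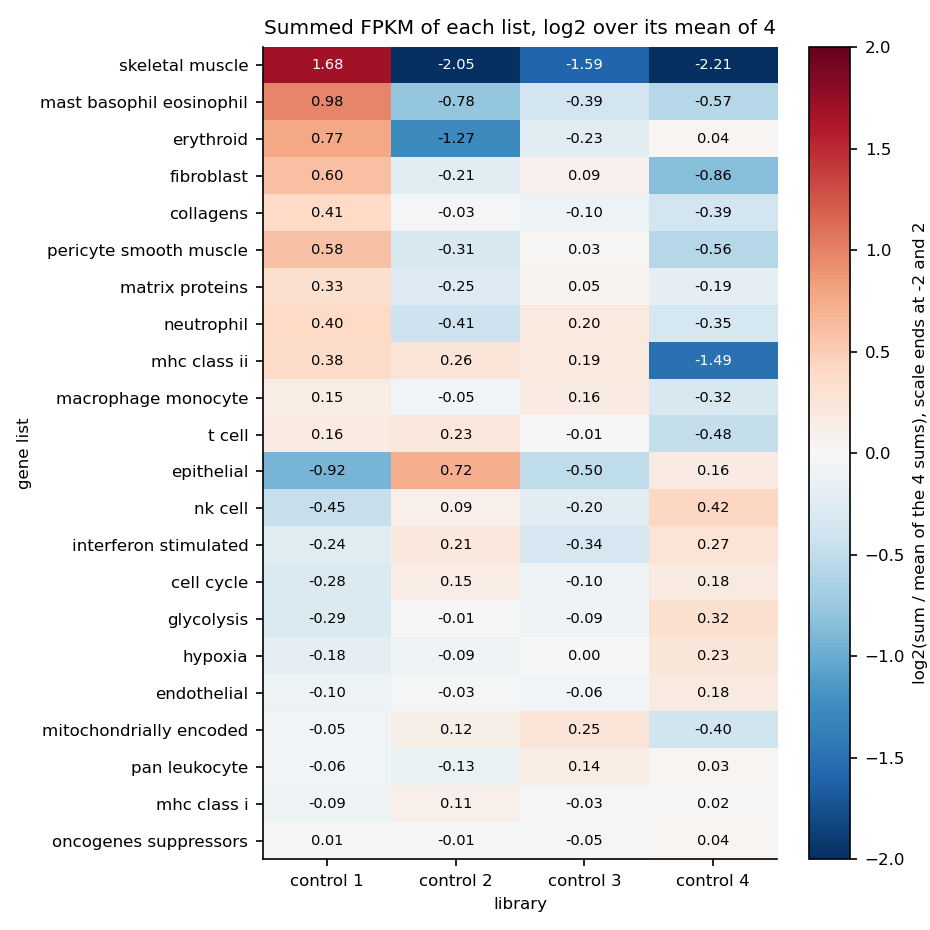
Summed FPKM of 22 gene lists in each control library, as log2 over the mean of the 4 sums; red is above and blue below the mean. Skeletal muscle and mast cell lists are highest in control 1, MHC class II is lowest in control 4 at -1.49, glycolysis is highest in control 4 at 0.32, and oncogenes and suppressors stay within 0.05 of their mean.

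Genes of lung epithelium, the tissue in which the line arose, and of other lineages were mostly low or absent. Of 99 such genes 15 had a mean of 1 FPKM or more, 3 of them among 12 genes of alveolar lung. Nkx2-1, the transcription factor that defines lung and thyroid epithelium, was at 0 in every library. Sftpc, the surfactant protein of alveolar type II cells, was at 0.0349 ± 0.0437 and Scgb1a1 of airway club cells at 0.043 ± 0.0525. None of 8 airway, 8 kidney or 8 germ cell genes passed. Alb, albumin, was at 0.0163 ± 0.0325. Tyr, tyrosinase of melanocytes, was at 0 in every library.

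Exceptions were few. Ins2, which encodes preproinsulin 2 and is used as a marker of pancreatic beta cells, was at 25.9, 32.2, 37.9 and 34.1 FPKM and rested on 1595 to 1761 reads in each library. The beta cell genes Ins1 at 0.566, 0.727, 0.998 and 0.191 and Pdx1 at 0.483 ± 0.101, and Gcg of alpha cells at 0.515 ± 0.142, were below 1. Chga, chromogranin A of secretory granules, was at 4.75, 7.16, 6.62 and 9.28, Syn1, a synaptic vesicle protein, at 10.5, 5.47, 8.14 and 6.84 and Abca3, a lipid transporter of alveolar type II cells, at 5.33, 4.57, 4.47 and 4.83. Mitf, which melanocytes share with macrophages and mast cells, was at 7.33, 5.24, 6.66 and 5.45. Ttr, transthyretin, was at 2.35 ± 0.504. Pepd at 7.22 ± 0.277 encodes a widely expressed peptidase and marks no lineage. None of the 15 had a CV of 0.5 or more, which is near the share of 2.72% over all genes at 1 FPKM or more. Syn1 overlaps 9 exon bases of Araf on the opposite strand, at 13.4 FPKM.

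Genes of the sex chromosomes were measured in every library. Xist, the RNA of the inactive X, was at 0.00781, 0.0215, 0.00348 and 0.00849 FPKM. The Y-linked genes Eif2s3y at 2.98, 2.27, 3.99 and 3.06 and Ddx3y at 2.55, 2.23, 2.73 and 1.84 were above 1 in all but none of the values exceeded 4. Uty was at 0.516 ± 0.0547 and Kdm5d at 0.434 ± 0.0585.

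Between libraries most genes were steady. Over the 12707 genes at 1 FPKM or more the median CV was 0.118, with quartiles of 0.0770 and 0.183. CV was under 0.1 in 5053 genes (39.8%), 0.5 or more in 346 (2.72%) and 1 or more in 42. Pearson's r of log2(FPKM + 0.5) across these genes, which are not independent replicates, ran from 0.972 for controls 1 and 2 to 0.984 for controls 1 and 3. After counting error was taken off, 284 genes had a CV of 0.5 or more. Of the 346, 179 rested on a mean of fewer than 100 reads, among them microRNA, small nucleolar and antibody segment genes. Of the other 167, 80 were highest in control 1, 45 in control 2, 20 in control 3 and 22 in control 4. Reads were not scaled for depth, so this filter passes genes high in control 1, the deepest library, more easily than those in control 3. Before the filter 36.4%, 27.2%, 20.5% and 15.9% of the 346 were highest in controls 1 to 4. Over all genes the shares were 28.1%, 27.4%, 18.9% and 25.6%, so control 2 was near its background with or without the filter. Control 3 was near its background without it. In control 4, 93 of the 167 and 46.2% of the 346 were lowest, against 27.4% of all genes.

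The most variable genes named are grouped here by their highest library. Control 1 was high for muscle genes, with Myh4 at the largest CV (1.9) of the 30 named for their CV, and for H19, an imprinted long noncoding RNA, at 6.78, 0.0523, 0.0761 and 0.279 FPKM. It was also highest for Gpx3, a secreted glutathione peroxidase, at 8.97, 1.25, 3.94 and 1.57 and for Dpt, dermatopontin, at 2.54, 0.358, 0.507 and 0.913. Control 2 was high for Tns4, a focal adhesion protein, at 1.7, 7.56, 1.79 and 0.821, for Cd300ld3, a myeloid receptor, at 0.894, 5.25, 0.366 and 1.43 and for the noncoding RNA gene Platr14 at 0.533, 5.02, 1.01 and 0.0965. Control 3 was highest for Rhox4a2. Control 4 was high for Lipg, endothelial lipase, at 0.331, 0.207, 1.11 and 11.6 and for the granzymes. Among the 30, Gzmd at 24.2 ± 25.1 had the highest mean. Past a CV of 0.5 there were more abundant genes, such as Apoe with a CV of 0.551.

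**Figure D5:**
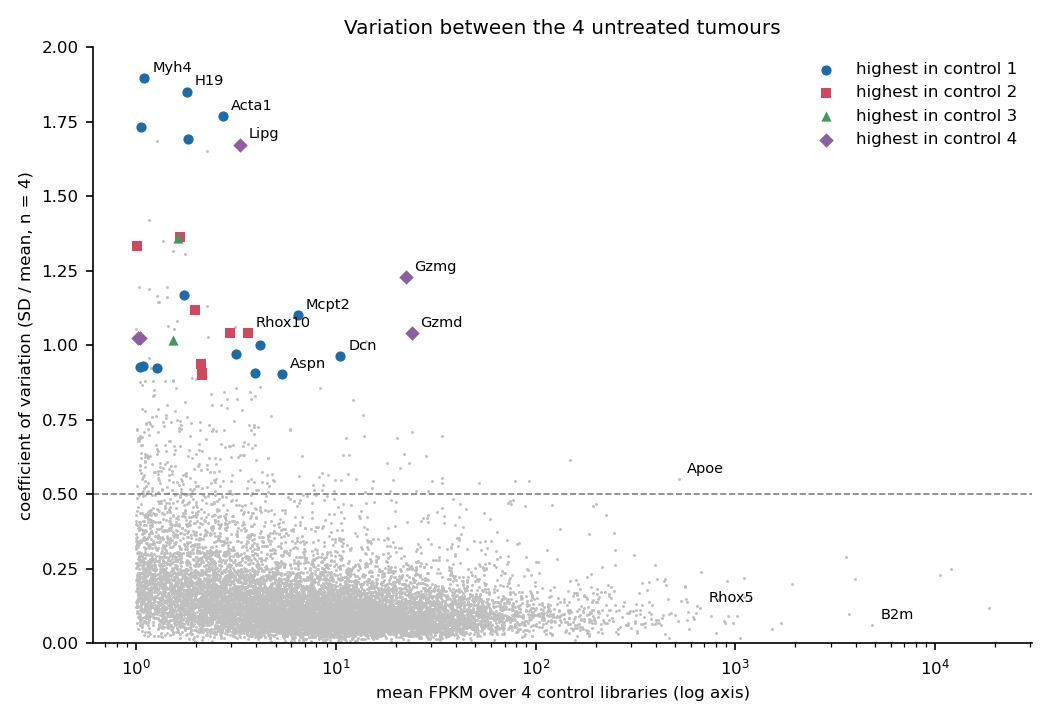
Coefficient of variation against mean FPKM (log axis) for the 12707 genes at a mean of 1 FPKM or more; grey points are all genes, coloured shapes the 30 most variable named genes by their highest library, and the dashed line a CV of 0.5. Most named variable genes lie under 10 FPKM, Gzmd and Gzmg lie above 20, and Rhox5 and B2m lie among the steady abundant genes.

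At the other end, the 10 steadiest genes at 10 FPKM or more had CVs of 0.00686 to 0.0115. They included Ttll4, a tubulin glutamylase, at 11.1, 11.3, 11.2 and 11.2 FPKM, Glul, glutamine synthetase, at 19.2, 19.1, 18.9 and 18.9, the transport GTPase genes Rab10 at 62.3, 62, 62.3 and 60.9 and Rab5c at 157, 160.3, 159.5 and 158, and Opa1, a mitochondrial fusion protein, at 10.8, 10.7, 10.6 and 10.6. With 12707 genes ranked over 4 libraries the ends of the list were chosen by this measure, so their values describe these libraries only.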

How the data were processed

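Per the labels' protocols, tumour RNA was extracted with TRIzol and oligo(dT)-selected messages were sequenced from both ends. Groups came from sample titles. The authors deposited FPKM values for each of the 4 controls and, for controls 1 and 2, also raw gene counts. HISAT2, featureCounts, Subread and DESeq2 are named per the submitters' processing notes, whereas versions, build, annotation and strandedness were not given in the sources used here. In both count files FPKM equals count over gene length and total count, which gave a length for 27421 genes and, from the FPKM steps, the reads of controls 3 and 4, where 100% of values were whole to within 0.05 reads. Counts of 1 to 10 were even in 67.0% and 67.2% of cases in controls 1 and 2, so counting error may be larger than stated.

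Symbols matched 31571 genes (98.0%). Biotypes, transcripts and exon overlaps came from GENCODE vM21 and promoters from RefSeq. Of 217 genes described, 56 share exon bases with another gene, and for 5 of these the partner's mean FPKM is the same or higher: 1810014B01Rik, Ciita, Col4a2, Myh7 and Syn1.

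Genes were ranked by mean FPKM over the 4 controls. The members and lists were chosen with earlier results of these data known. Genes named were drawn from the 30 most abundant, the 4 most abundant members of each list, the 30 of highest CV at a mean of 1 FPKM or more and the 10 of lowest CV at 10 or more, leaving out predicted genes, pseudogenes and receptor segments, the 3 on either side of 1 FPKM, and a fixed set; 51 of the 217 were chosen outside this rule after their values were seen. List scores are means of log2(FPKM + 0.5). No test between groups was run because there is 1 group, and single libraries that stood apart were marked with Dixon's test. Tests on simulated reads of 12707 genes, 200 with a CV of 0.8 and the rest 0.1, placed 75% of the 200 among the 200 highest CVs. Median estimates after counting error was taken off were 0.709 and 0.0876, both below the CVs set. Simulated reads were drawn singly, so they hold too little counting error if both mates of a pair were counted in the data. Analyses used Python 3.11.15, pandas 2.3.3, numpy 2.4.6, biopython 1.88 and matplotlib 3.10.9. The alternatives were 3 other scalings, other filters and measures of spread, and each library left out. Some genes under the naming rule are not reported here.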

Additional observations from a re-analysis of the deposited data

Results flagged for a closer look

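A library was set apart when the gap between it and its nearest neighbour exceeded Dixon's 95% limit for its share of the range over 4 values, which chance passes in about 1 in 20 groups. This held for 29 of the 217 genes described and 4 of 60 list scores. Many of these genes were chosen for their spread, so the count has no chance level. The causes were not tested.

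Control 4 stood alone at the high end for Gzmc (26.9 FPKM), Gzmd (61.8), Gzme (27.0), Gzmf (40.9), Gzmg (63.6) and Lipg (11.6). It stood alone at the low end for H2-Aa (11) and H2-Eb1 (22.9) and for the MHC class II score (3.56 on the log2 scale). Its read share of mitochondrially encoded genes was also the lowest, 5.18% against 6.47 to 7.96%.

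Control 1 stood alone at the high end for the muscle genes Acta1 (9.94), Des (6.41), Myh4 (4.22) and Tnnt3 (3.80), with a skeletal muscle score of 0.84 on the log2 scale. The same held for H19 (6.78), for the mast cell genes Cma1 (5.05), Cpa3 (5.71) and Tpsb2 (5.37), and for S100a8 (3.29).

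Control 2 stood alone at the high end for Col4a1 (119), Csf1 (128), Pdcd1 (3.73), Snai2 (50.8) and Tns4 (7.56) and at the low end for Spp1 (743). Its epithelial score of -0.0028 was the highest and its score for angiogenic ligands, 2.59, the lowest, although the summed FPKM of that list was lowest in control 1, at 104 against 108 in control 2. Control 3 stood alone for Cxcl9 (126) and Rhox4a2 (3.88). Alb (0.0650 in control 4), Elane (0.105 in control 2), Mpo (0.0301 in control 2) and Krt5 (0.0284 in control 3) were above 0 in a single library each. Elane and Mpo rested on 4 reads each.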

How the results depend on the processing

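The count of genes at a mean of 1 FPKM or more stayed within 1.5 times of 12707 under every alternative run, from 11803 when every library had to pass to 16031 on the TPM scale. The median CV of 0.118 was 0.141 on the TPM scale, 0.128 at a mean of 0.5 FPKM or more, 0.0998 at 5 or more, 0.343 with no filter and 0.10 with the counting variance doubled. The 346 genes with a CV of 0.5 or more became 1232 on the TPM scale, whose step of 1 takes in lower genes, 734 at a mean of 0.5 FPKM or more, 53 at 5 or more and 167 at a mean of 100 reads or more. The alternatives with doubled counting variance and with 100 reads were chosen after seeing the data. The 10 most abundant genes held 8.54% of reads in place of 20.9% of summed FPKM. Of the 30 most variable genes, 18 were shared when ranked by the highest over the lowest library, 21 by the SD of log2 values and 5 at a mean of 5 FPKM or more. Leaving out each library in turn gave a median CV of 0.104 to 0.118, with 17 to 24 of the 30 shared. A mean of 3 of the 4 libraries cannot move by more than 1 SD, so the levels of genes and lists staying within it says nothing. The TPM scale moved 59 of 60 list scores and 213 of 217 gene levels, since it multiplies all values by 3.29 to 3.42. Another pseudocount, 0.1 or 1, moved 39 and 37 list scores, and the median over members 46. The highest library of the 178 genes described at 1 FPKM or more was the same in 166, 166 and 168 under the TPM scale, median of ratios and scaling without mitochondrially encoded genes. No paired analysis was possible because no result comes from a test between groups. Levels under about 0.1 FPKM rest on a few reads.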

Other observations

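Chaperone genes were abundant and differed little between libraries. All 18 genes of a list of chaperones and stress factors passed 1 FPKM, with a median CV of 0.0618 against 0.118 over all genes at that level. The list was far more abundant, with a median of 219 FPKM against 7.11, and CV was lower at higher levels. Over genes at 5 FPKM or more the median CV was 0.0998, and over the translation factor list, of median 206 FPKM, it was 0.0969. Calr, calreticulin, was at 457, 468, 475 and 457 FPKM and Hspa8, a constitutive heat shock protein, at 801, 815, 763 and 824. Xbp1, a transcription factor of the unfolded protein response, was at 65.1, 63.6, 69.7 and 61.1. Genes of iron storage and antioxidant defence differed more, with a median CV of 0.152 over 17 genes. Fth1, the ferritin heavy chain, was at 336, 447, 351 and 388, and Hmox1, the heme-degrading oxygenase, at 206, 137, 172 and 239, lowest in control 2. Of 18 immediate early genes, which growth factors and stress induce quickly, 17 passed 1 FPKM, and 9 of these were highest in control 1 and 6 in control 4 (7 to 10 and 5 to 8 under other scalings), against 28.1% and 25.6% of all genes. By the median of ratios control 4 had more of them, 8 against 7. Jun was at 88.5, 64.7, 72.9 and 65.9 and Junb at 64.1, 50.2, 40.1 and 54. The nuclear noncoding RNA gene Malat1 was at 68.3, 98.7, 121 and 68.2, highest in control 3, whereas Neat1 was at 43.5, 48.1, 43.8 and 50.7.

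Nuclear genes of the respiratory chain did not share the low place of control 4 seen in mitochondrially encoded genes. Of 20 nuclear genes of the chain, 9 were highest in control 4 (6 to 10 under other scalings) and 4 lowest there (3 to 6). Over all genes 25.6% were highest and 27.4% lowest in control 4, so the count of lowest nuclear genes was near background. When scaled without mitochondrially encoded genes, 6 were highest and 6 lowest there, both near background. By contrast 12 of 13 mitochondrially encoded genes were lowest in control 4 under each scaling. Atp5a1, a subunit of ATP synthase, was at 236, 222, 241 and 270.3 FPKM, and Cox7c of complex IV at 91, 104, 93.8 and 101. The mitochondrial ribosomal RNA genes mt-Rnr1, at 219, 437, 279 and 308, and mt-Rnr2, at 125, 153, 139 and 140.5, were both highest in control 2.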
